A study of Mus musculus with 18 samples.

Results

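Cluster 10 of the mouse KZFP/rGUs is a group of KRAB-zinc finger protein (KZFP) genes and related genetic units near the distal end of chromosome 4. It was taken from chr4:145039512-147201054 in mm9, the bounds given for this cluster by its first and last unit, and every peak of 6 ChIP-seq lists that shared at least 1 bp with these bounds was kept. With the SETDB1 list left out of the sum, since each of its entries is also a KAP1 entry, this gave 301 of 104821 peaks, with 25 of the 560 KZFP/rGUs whose coordinates were used and 86 annotated genes. The choice of the bounds used no peak. The study itself, however, had singled out this cluster because it held the highest share of units upregulated on loss of Kap1. In the 6 lists, the locus held 23 of 13366 KAP1 peaks, 16 of 2957 entries of the SETDB1 list, 189 of 14425 WT and 15 of 4319 Kap1 KO H3K9me3 peaks, and 19 of 36275 WT and 55 of 36436 Kap1 KO H3K27ac peaks.

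KZFPs are DNA-binding proteins with a KRAB domain at one end and an array of zinc fingers at the other, and most of their known targets are transposable elements. The KRAB domain recruits KAP1 (TRIM28), a corepressor that brings in the histone methyltransferase SETDB1, which deposits H3K9me3, a mark of repressed chromatin. H3K27ac marks active promoters and enhancers. KZFP genes arose by repeated duplication, and their zinc finger exons, at the 3' end of the genes, are themselves known to be bound by KAP1 and marked by H3K9me3 in several cell types.

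KAP1 and SETDB1 were profiled in Hepa 1.6 cells, a WT hepatoma line grown from the BW7756 tumour of a C57L mouse. H3K9me3 and H3K27ac were profiled in mouse embryonic fibroblasts (MEFs) on a C57BL/6 background (C57BL/6J in the methods), either WT with loxP sites in both Kap1 alleles (WT Kap1 loxP/loxP) or Kap1 KO. There was 1 library per list, so nothing below has a replicate, and a difference between the genotypes cannot be told apart from one between libraries or cultures. Hepa 1.6 cells and MEFs also differ in tissue and strain. The value of a peak is the score deposited by the authors. Where no peak was called, enrichment too weak for the peak caller may still be present. Scores of at least 3100, where many peaks pile up, made up 28.1% of the WT and 21.9% of the Kap1 KO H3K27ac list, so scores served to rank peaks within a list and not as amounts. Shares carry exact Clopper-Pearson 95% confidence intervals (CI), which cover counting error only.

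The locus spans 2161543 bp with a GC content of 40.3%, against 42.3% for all of chromosome 4. Assembly gaps, 4 of 50000 bp each, take up 9.25% of it. The units are numbered here from 1 to 25 in the order of their coordinates. They were short, with a median length of 1528 bp and a range from 127 to 2707 bp, lay a median of 75576.5 bp apart and made up 1.76% of the locus. An exon of a protein-coding gene overlapped 20 of them. Unit 1 was in exons of the processed transcript Gm13227 and the pseudogene Gm13230, and unit 5 in the pseudogene 1700029I01Rik, while units 11, 14 and 17 were in no exon. Units 6, 7 and 11 touch a gap and may be cut short by it. Of the 86 genes, 22 were protein-coding, 49 were pseudogenes, 9 processed transcripts, 5 lincRNAs and 1 a miRNA. Gm16503 was the only protein-coding gene of the locus that neither held a unit nor carried a gene name shared with one.

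Zinc fingers of KZFPs are joined by a short conserved linker, and its codons can be written as ACNGGNGANAANCCN, with N at the positions where codons of the same amino acid differ. These letters were searched on both strands, overlapping matches included. They occurred in 24 of the 25 units, with a median of 10 matches and up to 20 in unit 3 (Gm13212), and in 538 of all 560 units. Along chromosome 4, with its units not left out, 282 of 99372 stretches of 1528 bp held a match, which is 0.284%. The study defined the units by a repeat whose consensus covers zinc finger motifs and part of the linker. Matches in nearly all units therefore follow from that definition and are given as a description only. The unit without a match was unit 11, the shortest of all. All matches of a unit were on 1 strand, the coding strand of the overlapping gene where there was one.

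The locus is full of near-identical copies, which limits how far a 100-bp read can be placed. Of its 100-base windows, 41.9% occurred once in the genome, compared with 87.2% in the stretch of the same length before it and 98.9% in the one after it. Among the repeated windows, 82.6% had all their copies inside the locus. Sequence comparison found a related unit (at least 80% identity over at least 50% of the length) for 23 units, with a median identity of 93.2% to the closest one. Unit 10 (Rex2) and unit 15 (Gm13138) were identical, as were the 414 bp of unit 7 (2610036A22Rik) and the matching stretch of unit 5. Unit 16 (Gm13139) was 99.6% identical to unit 5 and 99.4% identical to unit 9 (Gm13251). Units 11 and 25 (Zfp933) had no relative in the locus. These comparisons, and the sequence families described further on, were chosen after the data had been seen.

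In WT MEFs, 20 of the 25 units lay under an H3K9me3 peak (80%, CI 59.3% to 93.2%), against 22.1% of all 560 units. The peak covered over 90% of the unit in 12 cases. The highest score over a unit was that of unit 5 (1306), followed by unit 9 (1261) and unit 16 (709), 3 units that are over 99% identical. The median over the 20 units was 268 and the lowest score was 60.3, over unit 2 (Gm13225). Seen in the whole list, the median of these scores stood at percentile 93.6. The lowest stood at percentile 27.5.

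KAP1 peaks were found over 14 units in Hepa 1.6 cells (56%, CI 34.9% to 75.6%), against 22.5% of all units. Each of these 14 also had H3K9me3 in WT MEFs, and no unit had KAP1 alone. A further 6 units had H3K9me3 without a KAP1 peak, namely units 1, 3, 7, 19 (Gm13145), 20 (Gm13152) and 25. Neither was called at units 11, 14, 17, 21 (Gm13154) and 22 (2610305D13Rik). Those 5 included all 3 units that were in no exon, and their median length was 946 bp, compared with 1534 bp for the units with both. Among the KAP1-bound units, 12 were in the SETDB1 list (48% of 25, CI 27.8% to 68.7%), against 11.1% of all units. The exceptions were unit 6 (Gm13235), with the lowest KAP1 score of any unit (85), and unit 24 (Gm13157, 189). The KAP1 score over units reached 443 at unit 16 and 406 at unit 15, with a median of 226. The other KAP1 peaks over units in the SETDB1 list had scores of 351 at unit 18, 313 at unit 12 (Gm13051), 285 at unit 8 (Gm13247), 264 at unit 9, 249 at unit 2 and 109 at unit 23 (Zfp534). Units 4 and 13 had a pair each, with 190.0 and 125 at the one and 203 and 103 at the other, and a smaller peak at unit 15 had 139. Unit 5 also had a peak of 126 that was not in this list. Unit 5, which led for H3K9me3, had a KAP1 score of 170.0. The H3K9me3 score was 76.7 at unit 15, while unit 10 had 170.0 for KAP1 and 354 for H3K9me3. Since these units are identical, reads from inside them cannot be told apart, and the difference between them is not read as one between the genes.

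The KAP1 peak over unit 16 lay in the coding part of the last exon of Gm13139. To show what such a site looks like, the 300 bases at its centre, chr4:146553361-146553660 on the plus strand of mm9, are given with the linker matches in capitals.
KAP1 peak over unit 16: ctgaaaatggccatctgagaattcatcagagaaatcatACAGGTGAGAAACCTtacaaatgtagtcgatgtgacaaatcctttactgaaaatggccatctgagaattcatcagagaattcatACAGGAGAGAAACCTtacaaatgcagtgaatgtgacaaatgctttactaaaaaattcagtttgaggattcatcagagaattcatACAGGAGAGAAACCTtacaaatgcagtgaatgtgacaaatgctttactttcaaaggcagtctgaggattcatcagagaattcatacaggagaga

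Of the 23 KAP1 peaks, 18 lay over a unit (78.3%, CI 56.3% to 92.5%), against 0.995% of the whole list. The SETDB1 list held 16 of the 23 (69.6%, CI 47.1% to 86.8%, 22.1% in the whole list), and 21 overlapped a WT H3K9me3 peak (91.3%, CI 72.0% to 98.9%, 13.9% in the whole list). Every entry of the SETDB1 list is also an entry of the KAP1 list with the same coordinates and score, so that this list is a subset of KAP1 peaks. The peaks without H3K9me3 were the smaller one over unit 15, at chr4:146433541-146434050, and one in an intron of the lincRNA Gm16889 at chr4:146582959-146583806 with a score of 88. The only KAP1 peak of the locus that overlapped a Kap1 KO H3K9me3 peak without lying over a unit was at chr4:145723478-145724909.

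The 2 highest KAP1 scores of the locus were not at the units. Among the 5 peaks away from them, chr4:145424830-145425800 had a score of 1871 and was in the SETDB1 list, chr4:146559496-146560525 had a score of 751, and chr4:145723478-145724909 had a score of 335. They lay 5422 bp from unit 5, 5313 bp from unit 16 and 5422 bp from unit 9, the same 3 units that had the highest H3K9me3 scores, and all 3 were under H3K9me3 peaks, the highest of which had scores of 1268, 813 and 1261. No exon overlapped them. Their sequences were 98.3% to 99.0% identical where they aligned. The 971 bp of the first had these 3 copies in the locus and 209 elsewhere in the genome with a median identity of 84.2%, of which 116 had a KAP1 peak and 52 a WT H3K9me3 peak. The stretch of 200 aligned columns around the centre of the first is given for the 3 copies because they carry the highest KAP1 scores off the units. Capitals mark the columns in which they are not all the same, 5 of the 200. The copies are from the mm9 strands plus, minus and plus, at chr4:145425215-145425414, chr4:145724418-145724613 and chr4:146560059-146560258.
score 1871, near unit 5: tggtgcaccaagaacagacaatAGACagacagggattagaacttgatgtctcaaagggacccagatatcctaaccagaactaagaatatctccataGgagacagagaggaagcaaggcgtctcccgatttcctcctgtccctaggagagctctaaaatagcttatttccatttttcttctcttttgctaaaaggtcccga
score 335, near unit 9: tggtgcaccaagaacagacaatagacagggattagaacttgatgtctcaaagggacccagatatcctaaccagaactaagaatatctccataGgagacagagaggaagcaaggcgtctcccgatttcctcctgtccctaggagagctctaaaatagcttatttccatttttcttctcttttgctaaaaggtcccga
score 751, near unit 16: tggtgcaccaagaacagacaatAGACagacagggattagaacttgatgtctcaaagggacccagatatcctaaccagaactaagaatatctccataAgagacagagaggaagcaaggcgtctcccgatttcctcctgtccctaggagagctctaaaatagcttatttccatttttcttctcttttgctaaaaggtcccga

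H3K9me3 peaks of WT MEFs were dense in the locus, also away from the units, and covered 12.4% of its bases. There were 87.4 peaks per Mb, against 4.17 per Mb in the rest of chromosome 4 and 5.37 per Mb in the rest of the genome. With scores of at least 80, these were 46.3, 1.84 and 2.68 per Mb, from 100 peaks in the locus, and 73 of the 189 had at least 50% of their windows found once in the genome. The median width of the 189 was 1003 bp, against 495 bp in the rest of the genome. The density ended with the locus, since the stretches of the same length before and after it held 6 and 8 peaks. Only 23 of the 189 peaks overlapped a unit (12.2%, CI 7.87% to 17.7%, 1.07% in the whole list). Another 35 were within 5 kb of a unit, and 131 were farther away. Peaks over units had a median score of 226, and the others of 80.4. A KAP1 peak overlapped 20 of the 189 (10.6%, CI 6.58% to 15.9%), which is no more than the 14.4% of the whole list. The share of H3K9me3 peaks under KAP1 was therefore not raised in the locus, although nearly all KAP1 peaks were under H3K9me3.

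H3K9me3 was unevenly spread. When the locus was cut into 10 stretches of equal length, WT peaks covered from 3.44% of the fifth to 28.7% of the eighth, which contains units 16 to 19. Joining peaks no more than 5 kb apart gave 79 blocks, of which 41 were a single peak and 4 were longer than 20 kb. The longest, chr4:145704072-145753812, spanned 49741 bp around unit 9 with 13 peaks. It was followed by chr4:146539393-146578147 around unit 16 (38755 bp, 12 peaks) and chr4:145409564-145444114 around unit 5 (34551 bp, 10 peaks). These 3 blocks held 35 of the 189 peaks and 32.2% of the bases under WT H3K9me3 peaks. They also contained the 9 highest peaks of the locus, among them the one at Gm13146 (813), a pseudogene within the lincRNA Gm16889, those at the pseudogenes Gm13238 (1268) and Gm13241 (972), and the one just downstream of unit 16 (997). The lowest of the 9 were at chr4:145711888-145716686 in no exon (470.0) and at chr4:146548686-146551158 in Gm13139 (458). The tenth, with a score of 385, was at the pseudogene Gm13244, 40960 bp from the closest unit. The fourth long block, chr4:146703781-146726171, was around unit 18 (Gm13151).

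In Kap1 KO MEFs, the H3K9me3 list was shorter in the whole genome (4319 peaks, against 14425), and the locus had 15 peaks. Their places were largely those of WT peaks. Of the 15, 13 shared a base with a WT peak (86.7%, CI 59.5% to 98.3%, 10.7% in the whole list), and of the 189 WT peaks, 12 shared a base with one of them (6.35%, CI 3.32% to 10.8%, 3.2% in the whole list). The count of 12 became 3 with scores of at least 80, and 19 when Kap1 KO peaks within 1 kb were accepted. The Kap1 KO peaks had a median score of 64.0, against 65.6 in the whole Kap1 KO list. In the locus, 3 scores were over 80. Those 3 were at chr4:145721671-145724009 over the start of Gm13241, at chr4:145426726-145427492 over the start of Gm13238, and at chr4:146649109-146649804 close to the start of Gm13135 (113), and all 3 of these genes are pseudogenes. A further peak (71.9) lay over the start of Gm13135 itself, and other peaks lay at or near the starts of Smarca5-ps (52.2), Gm13245 (53.6), Gm13158 (51.8) and Gm13136 (76.3). In total, 8 of the 15 were within 1 kb of a transcript start (53.3%, CI 26.6% to 78.7%, 6.65% in the whole list), compared with 47 of the 189 WT peaks (24.9%, CI 18.9% to 31.7%, 6.94% in the whole list). For the 8 Kap1 KO peaks, none of these starts belonged to a gene with a unit. The longest Kap1 KO peak, 2902 bp at chr4:146774056-146776957, lay 7491 bp from unit 19 and had a score of 76.9, with a WT peak (97.6) at the same place. The Kap1 KO and WT H3K9me3 lists differ in length and range, so neither scores nor percentiles compare amounts between them. The others were at chr4:146550330-146550810 (70.2) in an intron of Gm13139, at chr4:146756453-146757178 (52.5) in an intron of Gm13145, and at chr4:146515883-146516290 (56.4). The remaining pair, which had no WT peak, was at chr4:145945395-145945665 (57.1) and chr4:146810787-146811899 (58.7).

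Over the units themselves, 1 of 25 had a Kap1 KO peak, against 0.179% of all 560, so it was the only one of these 560. It was unit 4, in the last exon of Gm13242, where the peak stood at percentile 47.5 of the Kap1 KO list (score 64.0) and 91.1 of the WT list. This single call is uncertain. The Kap1 KO peak would be lost at a score of at least 80, which leaves 3 Kap1 KO peaks in the locus, and 1.59% of its windows occurred once in the genome, the others having up to 10 copies. The Kap1 KO peak covered 16.9% of this unit and the WT peak 60.4%. Unit 4 also had a pair of KAP1 peaks, and the Kap1 KO H3K9me3 peak overlapped the one with the score of 125. The centre of the overlap, chr4:145291393-145291692 on the plus strand of mm9, is coding sequence of Gm13242 and is shown as the only unit with a called H3K9me3 peak in both genotypes, with the linker matches in capitals.
unit 4, H3K9me3 in both genotypes: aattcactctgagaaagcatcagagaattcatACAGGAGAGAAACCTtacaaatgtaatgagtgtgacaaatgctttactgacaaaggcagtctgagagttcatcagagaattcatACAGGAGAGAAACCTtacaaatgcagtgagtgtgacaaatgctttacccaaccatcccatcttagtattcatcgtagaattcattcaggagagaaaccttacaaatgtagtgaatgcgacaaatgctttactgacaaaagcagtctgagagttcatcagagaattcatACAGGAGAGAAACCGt

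Units seldom had H3K27ac, in the locus as among the 560 units used. In WT MEFs 0 of 25 units had a peak (CI 0% to 13.7%), against 0.357% of all 560, and in Kap1 KO MEFs 1 had, unit 21 in Gm13154, against 0.536%. At the other end of the genes, a protein-coding gene with a unit had H3K27ac at a transcript start (within 1 kb) in 9 of 20 cases in WT and in 16 of 20 cases in Kap1 KO MEFs, compared with 54.6% and 53.3% of all protein-coding genes. In 7 of the 20 the start had a peak in Kap1 KO and none in WT MEFs, against 1.36% of all protein-coding genes. These were Gm13225, Gm13242, Gm13051, Zfp600, Gm13138, Gm13152 and Gm13154. Both genotypes had a peak at a start of Gm13212, Gm13235, 2610036A22Rik, Gm13247, Gm13139, Gm13145, 2610305D13Rik, Gm13157 and Zfp933, the last of which begins outside the locus. Of these, Gm13247 and Gm13157 had another start with a Kap1 KO only peak. No peak was found in either genotype at the starts of Gm13251, Rex2 and Zfp534, and at the 63 bp Gm13151 record that lies within unit 18.

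H3K9me3 was more frequent at the ends of these genes than at their starts. In WT MEFs, 16 of the 20 protein-coding genes with a unit had H3K9me3 within 1 kb of a transcript end (2.37% of all protein-coding genes) and 9 had it within 1 kb of a start (2.66% of all). In 5 of the 9, namely Gm13235, Rex2, Gm13051, Gm13138 and the 63 bp Gm13151 record, a peak was counted at both a start and an end, and in 3 of these 5 (Gm13235, Gm13051 and Gm13151) a peak at a start lay over a unit. No gene of the 20 had a Kap1 KO H3K9me3 peak at a start (0.706% of all protein-coding genes), and 1 had one at an end, Gm13139 (0.541% of all). At Gm13247, for instance, the WT H3K9me3 score at the end was 314, and H3K27ac at the inner of its 2 starts stood at percentile 33.4 of the WT list. In Kap1 KO MEFs no H3K9me3 peak was called at its starts or end. The H3K27ac peak at the inner start stood at percentile 75.8 there, and the outer start had a Kap1 KO only peak (587). At Gm13157, WT H3K9me3 at the end had a score of 363. H3K27ac at its outer start had a score of 3100, where many peaks are tied, in WT and stood at percentile 74.0 in Kap1 KO MEFs. Gm13212 had lower H3K9me3 at its end (75.3), with H3K27ac at percentile 65.4 in WT and 68.8 in Kap1 KO MEFs.

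Kap1 KO MEFs had 38 H3K27ac peaks in the locus without a WT peak, 69.1% of their 55 (CI 55.2% to 80.9%), against 22.8% in the whole list. In the other direction, 2 of 19 WT peaks had no Kap1 KO peak (10.5%, CI 1.30% to 33.1%), with the same 22.8% in the whole list. The count of 38 became 12 with only the 50% of each list that scored highest. Not all of these 12 are among the 38, since a shared Kap1 KO peak also counted where its WT peak was left out. The peak at Gm13247 (percentile 33.4 in WT and 75.8 in Kap1 KO) is one such case. The count of 38 fell to 16 with only peaks that had at least 50% of their windows found once in the genome, where no WT only peak was left. Both whole lists were of nearly the same length. The 38 peaks ranked lower than the 17 shared ones, at a median percentile of 32.2 against 68.8 of the Kap1 KO list. Within 1 kb of a transcript start lay 15 of the 38 (39.5%, CI 24.0% to 56.6%, 7.8% of such peaks in the whole list) and 11 of the 17 (64.7%, CI 38.3% to 85.8%, 42.3% in the whole list). With starts within 5 kb, the first number was 28 (73.7%, CI 56.9% to 86.6%, 21.5% in the whole list). WT H3K9me3 peaks overlapped 7 of the 38 (18.4%, CI 7.74% to 34.3%, 4.97% in the whole list) and 5 of the 17 shared peaks (29.4%, CI 10.3% to 56.0%, 0.701% in the whole list). Overlap of both marks in WT MEFs was found at 6 of the 189 H3K9me3 peaks (3.17%, CI 1.17% to 6.78%, 1.39% in the whole list). Most of the 38 thus did not overlap an H3K9me3 peak of WT MEFs.

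The highest Kap1 KO only peak, with a score of 1164, was chr4:146951712-146956092 towards the 3' end of Gm13154, 1220 bp from unit 21, and another one (464) covered this unit entirely. Unit 21 had neither KAP1 nor H3K9me3, and the closest WT H3K9me3 peak lay 29678 bp away. The start of the gene had a Kap1 KO only peak too (361). Other high peaks included one 29181 bp upstream of Rex2 at chr4:145850174-145852134 (1035), those over starts of Gm13051 (858), Gm13138 (639) and Gm13247 (587), over the shared start region of Gm13225 and Gm13242 (477), in an intron of Gm13145 (432), and between genes at chr4:145303893-145305968 (651). The WT only peaks were at Gm13243, chr4:145363813-145365334, with a score of 667, and at Gm13168, chr4:146230258-146231704, with a score of 179, and both of these genes are pseudogenes. The centre of the highest Kap1 KO only peak is intronic, chr4:146953752-146954051 on the plus strand of mm9, and is shown with CpG in capitals. No related H3K27ac site was found for it in the locus.
highest Kap1 KO only peak: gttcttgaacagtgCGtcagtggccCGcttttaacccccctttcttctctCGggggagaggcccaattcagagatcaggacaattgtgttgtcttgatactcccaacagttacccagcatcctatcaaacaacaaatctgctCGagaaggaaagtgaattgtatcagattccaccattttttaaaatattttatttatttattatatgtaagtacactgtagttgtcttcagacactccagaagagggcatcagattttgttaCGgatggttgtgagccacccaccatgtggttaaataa

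Most of the other H3K27ac sites of the locus were copies of each other. Peaks of both genotypes merged into 57 sites, and sites that aligned over at least 50% of the shorter one with at least 80% identity formed 4 families that held 50 of them, named A to D here, while 7 sites were single. Family A had 37 sites, 13 with a peak in both genotypes and 24 in Kap1 KO only, and 23 of them were at a transcript start. Their median distance to the closest unit was 27467 bp. The 550-bp core of this family, chr4:145682784-145683333 at a start of Gm13247, had 47 copies in the locus and 3 elsewhere in the genome. In the locus, 13 copies had a peak in both genotypes, 22 had one in Kap1 KO only, none had one in WT only, and 12 had none. Of these 3 groups, 9 of 13, 13 of 22 and 3 of 12 were at a transcript start. The 3 starts with a core copy and no peak were those of Gm13225, Gm13051 and Zfp534, and the first 2 of these genes had a Kap1 KO only peak at another of their starts. WT H3K9me3 overlapped 5 of the 47 copies, and none of the 12 without H3K27ac. No KAP1 peak overlapped a core copy.

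Part of the core is shown for 4 copies to compare the 3 states, chosen after their values were seen. The copies at Gm13247 (chr4:145683120-145683319) and Gm13157 (chr4:147183900-147184087) had H3K27ac in both genotypes and are from the minus strand of mm9. The others are from the plus strand. That upstream of Rex2 (chr4:145850432-145850630) had it in Kap1 KO only, and the one in an intron of Gm13154 (chr4:146931031-146931229) had no peak. The peak upstream of Rex2 has no window found once in the genome, so its reads may come from another copy. Capitals mark bases that are the same in all 4, 137 of 200 aligned columns.
Gm13247, both genotypes: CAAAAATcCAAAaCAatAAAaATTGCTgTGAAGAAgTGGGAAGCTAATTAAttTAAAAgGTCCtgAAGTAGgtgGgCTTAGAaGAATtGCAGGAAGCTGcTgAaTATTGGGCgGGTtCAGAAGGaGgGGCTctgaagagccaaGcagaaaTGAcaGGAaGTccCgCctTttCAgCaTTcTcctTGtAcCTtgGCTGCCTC
Gm13157, both genotypes: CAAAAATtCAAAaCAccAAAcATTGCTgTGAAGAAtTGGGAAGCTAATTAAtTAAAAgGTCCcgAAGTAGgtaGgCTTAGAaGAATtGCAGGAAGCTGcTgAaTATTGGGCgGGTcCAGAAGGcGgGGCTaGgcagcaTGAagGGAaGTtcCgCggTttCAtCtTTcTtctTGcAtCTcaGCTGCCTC
upstream of Rex2, Kap1 KO only: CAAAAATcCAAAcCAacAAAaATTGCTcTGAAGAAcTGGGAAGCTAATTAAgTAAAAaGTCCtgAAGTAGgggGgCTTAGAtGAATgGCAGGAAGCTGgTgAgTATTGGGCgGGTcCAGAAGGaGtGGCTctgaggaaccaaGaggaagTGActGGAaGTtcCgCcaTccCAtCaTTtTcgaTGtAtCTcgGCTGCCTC
Gm13154 intron, no peak: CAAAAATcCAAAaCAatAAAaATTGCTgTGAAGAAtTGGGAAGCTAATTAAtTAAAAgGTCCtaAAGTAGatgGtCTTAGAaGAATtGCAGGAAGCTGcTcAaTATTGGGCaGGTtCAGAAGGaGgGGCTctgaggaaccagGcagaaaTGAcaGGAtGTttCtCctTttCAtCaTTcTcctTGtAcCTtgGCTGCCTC

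Family B had 5 sites with a WT peak, 3 of them in both genotypes, and included both WT only peaks of the locus. It had 6 copies in the locus and none elsewhere, with 5 of them at a transcript start, and 4 overlapped WT H3K9me3. Its copies at chr4:145952881-145955425 and chr4:146498241-146500785 were identical, and both had peaks in both genotypes. One of its sites fell in rank in Kap1 KO MEFs, at the vomeronasal receptor pseudogene Vmn2r-ps19 (percentile 58.9 in WT, 38.5 in Kap1 KO).

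All 4 sites of family C and all 4 of family D were Kap1 KO only, and none was at a transcript start. Copies of family C lay from 10197 to 10399 bp downstream of units 4, 8, 10, 13 (Zfp600) and 15, and those with a peak had scores from 58.6 to 651. The copy downstream of unit 10, at chr4:145899226-145901294, had no peak although it is identical to the copy downstream of unit 15, whose peak had the lowest score of the family (58.6). Reads from inside this pair of copies cannot be told apart. Elsewhere in the genome 12 copies of family C were found, 1 of which had a Kap1 KO only peak. Copies of family D lay from 8737 to 12838 bp upstream of units 5, 7, 9 and 16, the group of near-identical units, and had scores from 113 to 218. Another copy at chr4:146855897-146857157, 88.5% identical, lay 29439 bp from unit 20 and had no peak. The gained sites of both families thus lay on the downstream side of units in C and on the upstream side in D.

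A stretch of family C is shown for the copy with the highest score and for the one without a peak, from the plus strand of mm9 at chr4:145304831-145305030 and chr4:145900161-145900358. Capitals mark the bases that differ, in 4 of 200 aligned columns, while over their whole length the copies were 94.9% identical.
downstream of unit 4, Kap1 KO only, score 651: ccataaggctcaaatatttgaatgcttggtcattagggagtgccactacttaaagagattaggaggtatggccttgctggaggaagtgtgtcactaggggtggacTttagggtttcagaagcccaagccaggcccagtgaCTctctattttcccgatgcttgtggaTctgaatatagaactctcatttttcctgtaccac
downstream of unit 10, no peak: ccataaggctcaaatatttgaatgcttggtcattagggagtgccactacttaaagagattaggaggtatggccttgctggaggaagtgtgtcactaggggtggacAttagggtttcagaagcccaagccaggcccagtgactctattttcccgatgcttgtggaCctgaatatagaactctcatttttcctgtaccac

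Shared H3K27ac peaks were compared by percentile, leaving out those at or above the score of 3100 in either list, since the many tied scores there make percentiles jump. Among the 15 shared WT peaks of the locus that were below it in both lists, 5 were over 20 percentile points higher in the Kap1 KO list than in the WT list, and 1 was over 20 points lower. Over all 16940 such peaks of the genome, 11.7% were over 20 points higher and 12.1% over 20 points lower. With the tied scores kept, 5 of 17 were higher and 3 lower, against 10.3% and 17.3% of all 28006 shared WT peaks. The 5 were at the starts of Gm13235 (percentile 35.2 in WT and 68.7 in Kap1 KO), Gm13247 (33.4 and 75.8), Gm13145 (6.49 and 60.9) and 2610305D13Rik (4.83 and 66.8), and in chr4:146683840-146685594 upstream of Gm13151 (28.2 and 70.6). All 5 belonged to family A. The lower one was at Vmn2r-ps19, as above. The peaks left out were at Gm13166 and Gm13157, both at or above 3100 in the WT list and below it in the Kap1 KO list, and they were the other 2 that were lower with the tied scores kept. The starts of 2610036A22Rik and Gm13139, which stood at percentiles 71.6 and 67.9 in WT MEFs, moved by less than 2 percentile points. Windows found once in the genome made up 8.62% and 0% of the Kap1 KO peaks there. They made up 31.7% at Gm13235, 89.7% at Gm13247, 8.41% at Gm13145, 8.57% at 2610305D13Rik and 23.4% upstream of Gm13151. Where this share is low, a rank cannot be tied with certainty to the named gene.

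H3K9me3 was also found at the starts of pseudogenes. Of the 49, 2 of which hold a unit, 22 had WT H3K9me3 within 1 kb of a start (2.35% of all pseudogenes) and 6 had Kap1 KO H3K9me3 there (0.731% of all). H3K27ac was at the starts of 4 in WT (5.48% of all) and 3 in Kap1 KO MEFs (5.77% of all), and KAP1 at that of 1 (2.65% of all). Among the 14 processed transcripts and lincRNAs, 2 had H3K27ac at a start in WT (34.5% of all such genes) and 7 in Kap1 KO MEFs (33.2%), 5 of which had no WT peak (2.16%). Those 5 were Gm13150 (score 221), Gm13147 (171) and the lincRNAs Gm17452 (222), Gm17565 (52.3) and Gm16889, which shares a start region and peak with Gm13152 (61.9). A Kap1 KO only peak was also at the starts of the miRNA AL929465.1 (223) and the pseudogene Gm13245 (179). The long lincRNAs Gm16889 and Gm17317 span 473967 and 320742 bp on opposite strands and enclose units 16 to 19, so a peak in their introns may belong to a KZFP gene inside them.

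Units were also ranked by RNA level among all 560 units and divided into 4 groups of equal size, using the study's expression table, whose values are not given here. In WT MEFs, 21 units of the locus were in the highest group, 2 in the next, 2 in the third and 0 in the lowest. The same counts were 18, 6, 0 and 1 in WT ES cells and 5, 4, 10 and 6 in WT liver. The units outside the highest MEF group were units 2, 11, 14 and 21, and 3 of these 4 had no H3K9me3 peak. Units 17 and 22 also had none but were in the highest group. A WT H3K9me3 peak lay 476 bp from unit 14 and 397 bp from unit 17. Of the 20 units under WT MEF H3K9me3, all but unit 2 were in the highest group of RNA level in the same cell type. The methods describe RNA-seq counts of uniquely mapped reads, and none of the 100-base windows of units 7, 10 and 15 occurs once in the genome. The RNA level of units with near-identical copies is therefore uncertain.

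Other clusters were compared by the same counts. Cluster 3 on chromosome 12 (chr12:17909615-21023139) has 26 units and cluster 6 on chromosome 13 (chr13:65055329-67927187) has 68. WT H3K9me3 overlapped 2 and 8 of their units, against 20 of 25 in cluster 10, and they held 11 and 14 WT H3K9me3 peaks in all. KAP1 overlapped 4 and 23 of their units. Kap1 KO only peaks made up 73.9% of 23 Kap1 KO H3K27ac peaks in cluster 3 (CI 51.6% to 89.8%) and 44.6% of 56 in cluster 6 (CI 31.3% to 58.5%), so that the share in cluster 10 was within the interval of cluster 3 and above that of cluster 6. None of the 17 gained peaks of cluster 3 and 25 of cluster 6 overlapped WT H3K9me3, compared with 7 of 38 in cluster 10. WT H3K9me3 peaks covered only 0.418% and 0.211% of clusters 3 and 6, against 12.4% of cluster 10. Few overlaps could therefore arise there, and no conclusion is drawn from the difference. Windows found once in the genome made up 62.0% and 64.7% of clusters 3 and 6.

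The repeated sequence bears on most of these peaks. The median share of their windows found once in the genome was 26.8% for KAP1, 33.9% for WT and 64.2% for Kap1 KO H3K9me3, 23.8% for WT and 29.1% for Kap1 KO H3K27ac, and 52.3% for the units. Of the 38 Kap1 KO only H3K27ac peaks, 9 had over 90% of such windows. WT H3K9me3 was not confined to repeated sequence, since 48.8% of the windows under its peaks were found once, against 40.9% of the windows outside them. A peak at one of several identical copies may come from reads of another, and how far this shaped the counts was not tested.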

How the data were processed

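ChIP-seq peak lists of KAP1 and SETDB1 in Hepa 1.6 cells and of H3K9me3 and H3K27ac in WT and Kap1 KO MEFs were used, 1 library each. The authors mapped reads of 100 bases to mm9 and called peaks against total input, and the score of each peak is used as deposited. The methods name a cutoff score of 80, but the deposited MEF lists go down to scores of about 50, and all their peaks were used. The submitters' processing notes name CASAVA 1.82, Bowtie2 2.2.1 and MACS 1.4. How reads with several matches were treated is not given in the sources used here, and depth is unknown.

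Peaks were assigned to the locus, to units and to each other by at least 1 shared bp, and to a transcript start or end within 1 kb, with GENCODE genes of mm9. Percentiles give the share of a list at or below a score. Related sequences were found with BLAST+ 2.17.0 and aligned with MAFFT 7.526, and windows were counted over the whole genome on both strands. Intervals were computed with scipy 1.17.1 and tables with pandas 2.3.3 in Python 3.11.15, with numba 0.67.0 for the windows, pysam 0.24.0 for the genome and bedtools 2.31.1 to check overlaps. The overlap and coverage steps were tested on simulated data. No test between genotypes was made.

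Named were all units and their genes, genes with a start within 1 kb of a Kap1 KO only or WT only H3K27ac peak or a Kap1 KO H3K9me3 peak, all Kap1 KO H3K9me3 peaks, KAP1 peaks of the SETDB1 list and the 5 highest others, and the 10 highest WT H3K9me3 and Kap1 KO only H3K27ac peaks, 1 of which is not reported here. Low KAP1 peaks, sequence copies and shared H3K27ac peaks that moved in rank were picked after their values were seen, as was the limit of 3100 for comparing ranks. Members and lists were chosen with earlier results of these data known.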

Additional observations from a re-analysis of the deposited data

How the results depend on the processing

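Of 44 alternatives over 13 results, 30 kept the value within 1.5 times the main one and 14 did not. Of the 44, 42 concerned a count and 2 a percent of bases. With only the 50% of each list that scored highest, KAP1 peaks fell from 23 to 15, WT H3K9me3 peaks from 189 to 100 and Kap1 KO H3K9me3 peaks from 15 to 7. Kap1 KO only H3K27ac peaks went from 38 to 12, and the 12 include shared peaks whose WT peak was left out. With a score of at least 80, the cutoff named in the methods, WT H3K9me3 gave 100 peaks over 9.16% of the locus, Kap1 KO H3K9me3 gave 3 peaks and 3 WT peaks shared with it. Over bases that are not N, WT H3K9me3 covered 13.7%, against 12.4% of all bases. Accepting Kap1 KO peaks within 1 kb raised the shared WT H3K9me3 peaks from 12 to 19, and starts within 5 kb raised Kap1 KO only H3K27ac peaks at a start from 15 to 28. In an alternative chosen after seeing the data, only peaks with at least 50% of their windows found once in the genome were kept, which left 6 KAP1, 73 WT H3K9me3, 9 Kap1 KO H3K9me3, 16 Kap1 KO only and 0 WT only H3K27ac peaks. These falls follow in part from keeping fewer peaks, and their cause was otherwise not tested. Counts of units with a peak ranged from 17 to 22 for WT H3K9me3 and from 12 to 14 for KAP1 under the alternatives run, among them leaving out the 3 units at gaps. Stricter rules for sequence families, also chosen after seeing the data, placed 49 or 48 H3K27ac sites in a family, against 50. No paired analysis was possible because each genotype had 1 library per mark.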
